A study of Homo sapiens with 7 samples.

Results

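Of the 18087 AML1-ETO binding sites called in Kasumi-1 cells, 4192 (23.2%) shared at least 1 base with an N-CoR site and none with a p300 site. These N-CoR-only sites are described here. Each site is a window of 100 bp centred on a peak summit, and the members were chosen by window overlap alone, so N-CoR and p300 distances below are descriptions of the rule. Kasumi-1 is an established myeloblast line from peripheral blood that carries the translocation between chromosomes 8 and 21. The cells were untreated, in log-phase growth at passage 25 to 30, and about 30000000 fixed cells went into each chromatin immunoprecipitation sequencing (ChIP-seq) library. The AML1-ETO library was made with an ETO antibody, and the AML1 library with an antibody to the C-terminal part of AML1 that the fusion lacks. The other lists used were N-CoR (10004 summits), p300 (11020), AML1 (11692) and H3K4me3 (19632). All came from the same line, so there is no cell lacking the fusion to set beside them. Biological replicates were pooled before peaks were called, leaving 1 list per antibody with the position and numbered name of each peak. No read depth or peak height stands in the lists, and no test between libraries was possible. Per the study's library overview the N-CoR libraries were sequenced more deeply than the p300 libraries, and the part of depth in the class sizes was not tested. Intervals below are 95% intervals (exact Clopper-Pearson for a share, Newcombe for a difference of shares) and cover counting error over sites only.

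AML1 (RUNX1) is a transcription factor that binds DNA through its runt domain and directs blood cell development. AML1-ETO keeps the runt domain and replaces the rest of AML1 by nearly all of ETO, a protein that binds the nuclear co-repressor N-CoR. N-CoR brings histone deacetylases to chromatin, whereas p300 is a histone acetyltransferase and a co-activator. H3K4me3 is a histone mark of active promoters. The runt domain reads TGTGGT, and the ETS factors, among them PU.1 and FLI1 of the myeloid lineage, read sequences around GGAA.

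The windows that show how the Runx consensus (TGTGGT) and an ETS core (AGGAAG) lay at these sites are printed first, 5′ to 3′, from hg19. Capitals mark TGTGGT and AGGAAG, or CTTCCT where the ETS core lies on the other strand. At the commonest arrangement of the motif pair both words shared 1 T, giving CTTCCTGTGGT.
DEF8 site, chr16:90036546-90036645, plus strand: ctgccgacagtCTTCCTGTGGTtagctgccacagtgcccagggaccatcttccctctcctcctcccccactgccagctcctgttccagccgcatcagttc

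At the next arrangement the same words stood 3 bases apart.
LMTK2 site, chr7:97762661-97762760, plus strand: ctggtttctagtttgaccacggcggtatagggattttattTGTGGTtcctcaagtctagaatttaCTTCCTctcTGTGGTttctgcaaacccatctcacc
AGTRAP site, chr1:11800991-11801090, plus strand: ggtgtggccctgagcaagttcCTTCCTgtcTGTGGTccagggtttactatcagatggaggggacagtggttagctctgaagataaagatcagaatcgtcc

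At another frequent arrangement both motifs lay on one strand, their first bases 15 bp apart.
CPLX1 site, chr4:827145-827244, plus strand: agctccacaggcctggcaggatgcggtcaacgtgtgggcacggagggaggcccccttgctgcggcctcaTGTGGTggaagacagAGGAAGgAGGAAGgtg
EPDR1 site, chr7:37992017-37992116, minus strand: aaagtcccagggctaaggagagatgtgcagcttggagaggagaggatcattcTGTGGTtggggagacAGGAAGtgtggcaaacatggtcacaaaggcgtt

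Of the members clear of annotated exons, the lowest-numbered with several copies of TGTGGT are shown for the Runx-Runx pair.
NHSL2 site, chrX:71320909-71321008, plus strand: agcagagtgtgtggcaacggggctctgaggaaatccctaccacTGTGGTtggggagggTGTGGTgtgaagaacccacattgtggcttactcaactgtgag
PRF1 site, chr10:72352796-72352895, minus strand: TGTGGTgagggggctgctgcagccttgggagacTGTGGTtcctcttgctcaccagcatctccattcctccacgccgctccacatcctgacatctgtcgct

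Many members held neither motif, and the lowest-numbered of these that touch no annotated exon show what such windows looked like.
TRIM8 site, chr10:104405747-104405846, plus strand: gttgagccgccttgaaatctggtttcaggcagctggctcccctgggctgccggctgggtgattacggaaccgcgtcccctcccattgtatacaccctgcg
ARHGAP22 site, chr10:49842491-49842590, plus strand: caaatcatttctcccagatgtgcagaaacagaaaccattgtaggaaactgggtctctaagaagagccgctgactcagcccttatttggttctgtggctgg

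The AML1-ETO sites fell into 4 classes: the 4192 N-CoR-only sites, 2842 sites with both N-CoR and p300, 1104 with p300 only, and 9949 with neither. Measured by features that the rule did not use, N-CoR-only sites more often than not had AML1 and lay away from promoters, and they held the Runx consensus more often than sites with both co-regulators. An AML1 window overlapped 2830 of them, or 67.5% (66.1 to 68.9), against 46.2% of all AML1-ETO sites. The share was 75.1% at sites with both co-regulators, a difference of -7.54 percentage points (-9.66 to -5.40). Averaged within 10 bins of the deposited peak order the difference was -2.44 points, and the members' AML1 share was 78.0% in the first 5 bins and 39.5% in the last 5. AML1 overlapped 34.3% of p300-only sites and 30.3% of sites with neither. The pooled difference of members from sites with neither was 37.2 points (35.5 to 38.9), and within bins it was narrower. In the first bin the shares were 93.8% and 74.3%, and in the last 25.9% and 14.9%. AML1 overlap was thus most frequent in the classes with N-CoR.

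Promoter position was defined as a transcription start of any annotated gene within 1 kb of the summit. By this measure 1024 N-CoR-only sites (24.4%) were at promoters, against 34.5% of all AML1-ETO sites, 37.3% of those with both co-regulators and 78.4% of those with p300 only. The difference from sites with both was -12.8 points (-15.04 to -10.6). An H3K4me3 summit lay within 1 kb of 621 N-CoR-only sites (14.8%), against 27.4% of all, 33.1% with both and 79.7% with p300 only. Here the difference from sites with both was -18.3 points (-20.4 to -16.3). Each gap was smaller once the other feature was set aside. Among sites with no H3K4me3 summit within 1 kb, the promoter share was 14.6% for N-CoR-only sites and 16.8% with both, a difference of -2.20 points (-4.28 to -0.192). Among sites away from promoters, the H3K4me3 share was 3.72% and 11.3%, a difference of -7.60 points (-9.27 to -6.04).

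**Figure D1:**
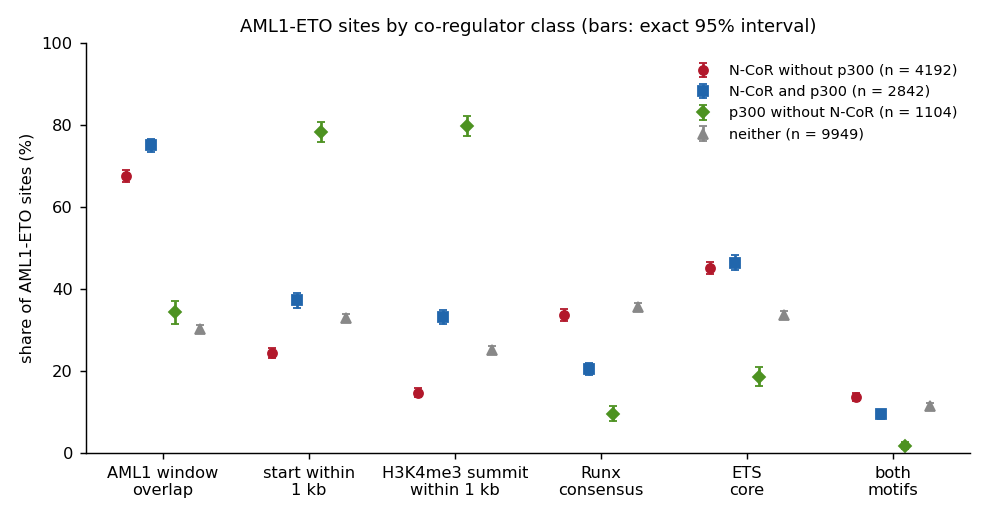
Share of AML1-ETO sites (y axis, percent) with each feature (x axis) in the 4 co-regulator classes. Points are shares and bars exact 95% intervals. N-CoR-only sites sit lowest for promoter (24.4%) and H3K4me3 (14.8%), and above sites with both co-regulators for the Runx consensus (33.7% against 20.6%).

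Away from promoters, introns held most of the N-CoR-only sites. Of the 4192, 1957 (46.7%) were intronic, 187 (4.46%) exonic, 314 (7.49%) within 10 kb upstream of a gene and 710 (16.9%) intergenic. The median distance to any annotated start was 5226 bp and to a protein-coding start 17740 bp. For sites with both co-regulators these medians were 2520 bp and 8956 bp. Only 70 members lay more than 100 kb from any start. Within 1 kb of a protein-coding start, 406 members were upstream and 222 downstream of it. The corresponding counts at sites with both were 519 and 236.

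The Runx consensus TGTGGT, searched on both strands, was present in 1414 N-CoR-only windows, or 33.7% (32.3 to 35.2), against 31.3% of all AML1-ETO windows. Windows of the same width 1 kb to either side of the members held it in 7.13%. The share was 20.6% at sites with both co-regulators, a difference of 13.1 points (11.1 to 15.2). It was 9.60% with p300 only and 35.7% with neither co-regulator (difference for members minus neither -2.01 points, -3.71 to -0.289). Within bins of the deposited peak order, members were below sites with neither in 10 of 10 bins, by a mean difference of -8.42 points. Away from promoters the contrast with sites holding both was as large, 37.0% against 23.4% (difference 13.6 points, 10.9 to 16.1). Away from H3K4me3 it was 37.2% against 24.6%. At promoters it was smaller, 23.6% against 15.8% (difference 7.86 points, 4.45 to 11.3). Base composition differed as well: the mean G+C content of the windows was 52.2% for N-CoR-only sites, 57.3% with both, 66.4% with p300 only and 56.3% with neither. Its part in the motif shares was not tested. With TGCGGT, a variant that the runt domain also reads, counted as well, the shares were 40.8% of members, 39.3% of all windows and 27.4% of sites with both. Sites with neither co-regulator stood higher, at 44.1% (difference for members minus neither -3.30 points, -5.07 to -1.51).

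The ETS core AGGAAG gave no clear difference between the classes with N-CoR. It was present in 1890 N-CoR-only windows (45.1%, against 37.5% of all AML1-ETO windows and 10.7% of the flanking windows) and in 46.4% of windows with both, with a difference of -1.36 points (-3.73 to 1.01). Its direction changed with the sites compared, being -3.49 points (-6.39 to -0.593) away from promoters, 2.41 points averaged within bins of the deposited peak order and 6.995 points in the last 5 of the 10 bins. Both N-CoR classes stood above sites with neither co-regulator (33.8%) and with p300 only (18.6%). The PU.1-type word GAGGAA, which can overlap AGGAAG, gave 30.8% of members against 26% of all windows, and 29.8% with both (difference 0.959 points, -1.24 to 3.14). The bare core GGAA was in 89.5% of members and 84% of all windows. An ETS word of another kind, CCGGAA, which is usual at promoters, was in 6.56% of members and 12.9% of sites with both (all windows 7.35%; difference -6.35 points, -7.82 to -4.93). That order held away from promoters, at 4.80% and 8.69%.

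**Figure D2:**
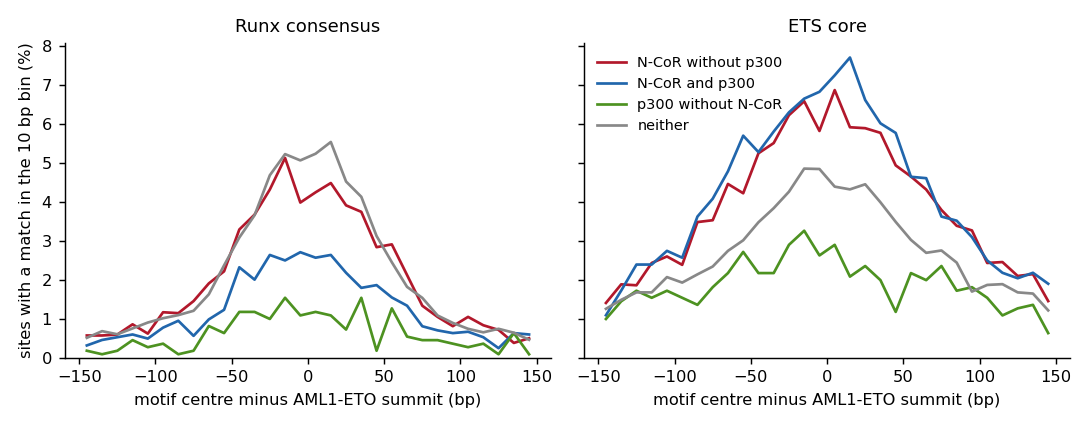
Position of the Runx consensus (left) and ETS core (right) around AML1-ETO summits: x axis, motif centre minus summit in bp; y axis, percent of sites with a match in each 10 bp bin; one line per class. Both motifs are most frequent near the summit. The Runx line of N-CoR-only sites is highest at -15 bp (5.13%) and lower at -5 bp (3.98%) and 5 bp (4.25%). The median distance of the nearest Runx match in an N-CoR-only window was 20 bp.

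Where present, the motifs lay near the summit. The median distance from summit to motif was 20 bp for both TGTGGT and AGGAAG at N-CoR-only sites, and 62.6% of members with TGTGGT had it within 25 bp. Both motifs occurred together in 574 members, or 13.7% (12.7 to 14.8), against 11.1% of all AML1-ETO windows, 0.656% of flanking windows and 9.50% of sites with both co-regulators (difference 4.19 points, 2.68 to 5.68). At sites with neither co-regulator the pair was in 11.6% (difference for members minus neither 2.13 points, 0.939 to 3.37). That direction did not hold along the deposited peak order. In the first of 10 bins the pair was in 17.7% of members and 14.0% of sites with neither, and in the last in 4.86% and 8.84%. With GAGGAA in place of AGGAAG the pair was in 9.97% of members, 7.92% of all windows and 5.49% of sites with both. Several copies of TGTGGT were found in 185 members (4.41%), against 4.77% of all windows and 0.286% of flanking windows. Members stood above sites with both co-regulators (1.69%, difference 2.72 points, 1.93 to 3.51). They stood below sites with neither (6.23%, difference -1.82 points, -2.58 to -1.01). Neither motif was found in 1462 members (34.9%, against 42.4% of all windows), which says only that these letters are absent from the window.

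No single arrangement of the Runx-ETS pair dominated. Counting strand and spacing, the 574 members showed 275 arrangements. The commonest, the fused word CTTCCTGTGGT printed above for the DEF8 site, was in 19 members, in 10 sites with both co-regulators and in 46 with neither, against 1 of 8384 flanking windows. The arrangement of the LMTK2 and AGTRAP sites was in 12 members and that of the CPLX1 and EPDR1 sites in 11. These counts are too small to rank one arrangement over the next.

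Some other motif words also differed between the classes with N-CoR. A Myb-type word (AACNGNC or AACNGTT, which can overlap an E-box) was in 16.1% of N-CoR-only windows, 17.2% of all windows and 24.2% of those with both co-regulators, a difference of -8.14 points (-10.1 to -6.22). MYB is a transcription factor of blood progenitors. The AP-1 word TGANTCA, read by FOS and JUN proteins, went the other way, with 8.04% of members against 4.86% with both and 5.19% of all (difference 3.18 points, 2.02 to 4.31). Both differences had the same sign at promoters and away from them: away from promoters the shares were 15.8% and 26% for Myb, and 8.65% and 5.78% for AP-1. The C/EBP word TTGCNNAA was in 12.1% of members, 11.05% of sites with both and 8.75% of all. The E-box CAGNTG was in 29.8% and 29.9% (all windows 30.7%), a difference of -0.138 points (-2.33 to 2.03). The GATA word AGATAA was in 3.89% of members, 2.89% with both and 3.3% of all.

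N-CoR-only sites with and without AML1 differed most in the Runx consensus. TGTGGT was in 43.6% of the 2830 members with an AML1 window and in 13.3% of the 1362 without, a difference of 30.3 points (27.6 to 32.8). Several copies were in 6.25% and 0.587%. The Runx-ETS pair was in 18.4% and 3.89%, and neither motif in 29.1% and 46.9% (difference -17.8 points, -21.0 to -14.7). AGGAAG was in 45.8% and 43.7%, a difference of 2.07 points (-1.14 to 5.27). The E-box was less frequent with AML1 (26.9%) than without (35.7%), a difference of -8.76 points (-11.8 to -5.75). Members with AML1 were at promoters in 22.3% and without in 28.9% (difference -6.56 points, -9.44 to -3.74). The AML1 summit was a median of 19 bp from the AML1-ETO summit where the windows overlapped. Of the 1362 without overlap, 50 had an AML1 summit within 250 bp, and their median distance was 15711 bp. The median deposited number of the AML1-ETO peak was 3744 with AML1 and 9156 without, and its part in these differences was not tested.

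N-CoR summits lay a median of 21 bp from the AML1-ETO summit, 2438 members (58.2%) within 25 bp and 52 on the same base. The nearest p300 summit was much farther for most members, at a median of 29999 bp. It lay at 100 to 250 bp for 321 members, or 7.66% (6.87 to 8.50). The 4.51% over all AML1-ETO sites includes the p300-overlapping classes, which are at 0 by the rule, and nothing is read from it. At sites with neither co-regulator it was 4.98%. A further 222 (5.30%) had it beyond that up to 1 kb, 818 (19.5%) at 1 to 10 kb, 1675 (40.0%) at 10 to 100 kb and 1156 (27.6%) beyond 100 kb. Of the 321 near misses, 182 lay under 150 bp and 51 within the first 10 bp outside the limit.

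The 321 members with p300 at 100 to 250 bp differed from the rest in position and in motifs. They were at promoters in 66.0%, against 21.0% of the other 3871, and near H3K4me3 in 65.4% against 10.6%. TGTGGT was in 10.3% against 35.7% (difference -25.4 points, -28.6 to -21.3), and AGGAAG in 30.5% against 46.3%. CCGGAA was in 18.1% against 5.61%. AML1 overlap was 64.2% and 67.8%, a difference of -3.61 points with an interval (-9.19 to 1.65) that holds 0. Across the distance bins the Runx share was 10.3% at 100 to 250 bp, 13.5% beyond 250 bp up to 1 kb, 31.9% at 1 to 10 kb, 36.3% at 10 to 100 kb and 41.7% beyond 100 kb. The H3K4me3 share ran the other way, from 65.4% and 61.3% below 1 kb to 10.9%, 6.93% and 6.06%. The p300 distance is part of the rule, so the bins are given as a description. Members with p300 within 250 bp but outside the window were also at promoters more often than sites where the windows overlapped (37.3%), by 28.8 points (23.1 to 34.05).

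**Figure D3:**
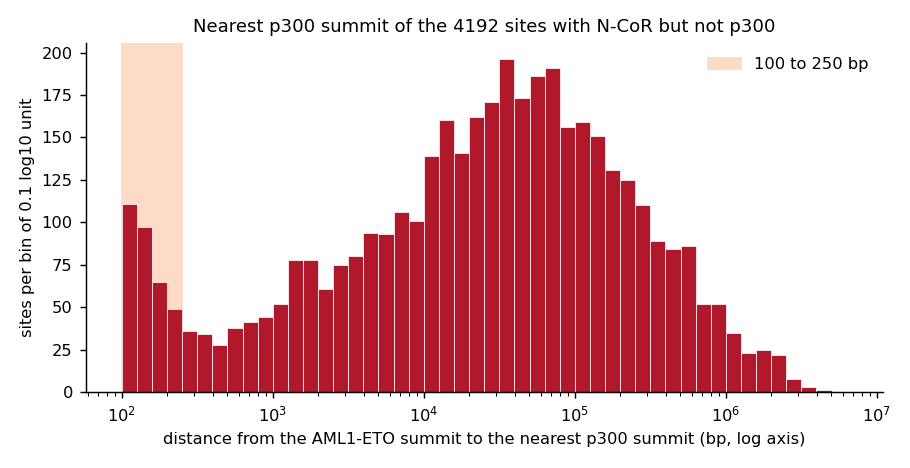
Number of N-CoR-only sites (y axis) by distance from the AML1-ETO summit to the nearest p300 summit (x axis, bp, log scale, bins of 0.1 log10 unit), with 100 to 250 bp shaded. The 321 sites in the shaded range stand at the left edge, which the rule sets at 100 bp by leaving out sites with a nearer p300 summit. The median over all 4192 sites is 29999 bp.

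Sites just inside and just outside the boundary of the rule are given without a test. Among N-CoR-bound sites, 54 had the p300 summit at 90 to 99 bp and were left out, and 51 had it within the next 10 bp and were kept. They were at promoters in 44.4% and 52.9% and held TGTGGT in 20.4% and 19.6%. Over 50 bp to either side of the limit, with 595 and 182 sites, the promoter shares were 42.7% and 57.7% and the TGTGGT shares 19.5% and 11.5%. Just outside were the CCDC97 intron site at chr19:41833536-41833635 (p300 at 98 bp) and the site 4216 bp upstream of PRR5 at chr22:45060161-45060260 (99 bp). Just inside were the HNRNPM site at chr19:8552442-8552541 (105 bp) and the site 37498 bp upstream of MRPS18A at chr6:43692976-43693075 (100 bp). On the N-CoR side, 60 sites without p300 had the N-CoR summit at 90 to 99 bp and counted as members, and 53 had it within the next 10 bp and did not.

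The deposited AML1-ETO peaks are numbered, and what the number ranks by is not given in the lists. N-CoR-only sites were concentrated at low numbers: they made up 41.9% (39.6 to 44.2) of the first of 10 equal bins and 10.23% of the last. AML1 overlap of the members ran from 93.8% in the first bin to 25.9% in the last, and TGTGGT from 45.6% to 17.8%. Sites with both co-regulators shifted in the same way, so the classes were also compared within bins. The Runx consensus was more frequent at N-CoR-only sites in 10 of 10 bins, by 12.5 to 21.1 points (mean 16.0). H3K4me3 was less frequent in 10 of 10 (mean difference -25.5 points), as was promoter position (mean -18.3). The Runx-ETS pair was more frequent in 10 of 10 (mean 6.09 points). AML1 overlap was lower in only 7 of 10 bins, with differences from -11.7 to 5.80 points (mean -2.44), so the sign of the pooled AML1 difference did not hold in every bin. The ETS core was higher in 6 bins and lower in 4.

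**Figure D4:**
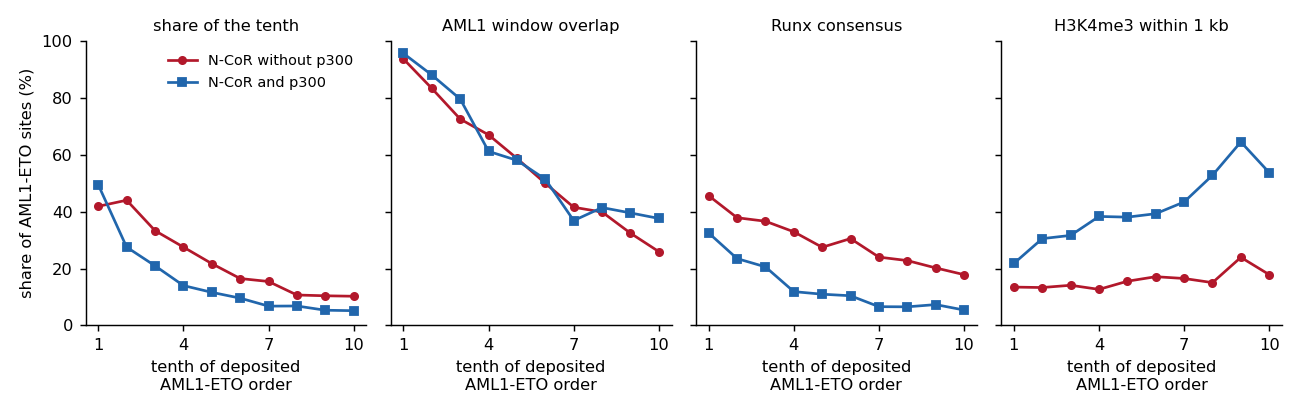
Share of AML1-ETO sites (y axis, percent) in 10 equal bins of the deposited AML1-ETO order (x axis), for N-CoR-only sites and sites with both co-regulators. The AML1 lines cross and end at 25.9% and 37.6%, the Runx line of N-CoR-only sites stays above the other in every bin, and their H3K4me3 line stays below.

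The comparison was also made on each of 23 chromosomes. N-CoR-only sites held TGTGGT more often than sites with both co-regulators on 22 of them and the motif pair on 20. H3K4me3 was less frequent on 23 of 23, and promoter position on 22, the exception being chromosome 21. AML1 overlap was lower on 19, and the ETS core on 15. N-CoR-only sites made up 19.4% of AML1-ETO sites on chromosome 11 and 28.7% on chromosome 9, the extremes, with 28.2% on X.

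The 12 lowest-numbered members lay near genes of varied function. The site with the lowest number lay in an exon of CCND3, the gene of cyclin D3 that drives entry into S phase, with AML1 at 85 bp, N-CoR at 40 bp and the nearest p300 summit 14801 bp away. The CYP51A1 promoter site (chr7:91763100-91763199, 641 bp inside a gene of cholesterol synthesis) held TGTGGT and had H3K4me3 at 269 bp. The ARHGAP22 intron site (chr10:49842491-49842590) had AML1 at 4 bp and p300 at 22016 bp. Sites 140 bp upstream of DMWD (chr19:46294393-46294492) and in an intron of ENSG00000257767 (chr12:112195666-112195765) held the ETS core and had p300 at 21765 bp and 71712 bp. The site 2125 bp upstream of ATP13A2 (chr1:17340498-17340597), which encodes a lysosomal ATPase, held TGTGGT. Of these 12 sites, 6 had a p300 summit at 100 to 250 bp, those at TRIM8, HNRNPM and KRT9 among them. In the others p300 lay at 111 bp in an intron of FMNL1 (chr17:43303650-43303749), at 168 bp near NRROS (chr3:196359315-196359414) and at 164 bp at the site 22855 bp downstream of the SNAI1 start (chr20:48622322-48622421). FMNL1 is a formin of blood cells and SNAI1 a zinc-finger repressor.

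Assigned to the nearest protein-coding start, the members fell to 2936 of 19807 genes (14.8%). Sites with both co-regulators fell to 2056 genes (10.4%) and p300-only sites to 1056 (5.33%). Of the 19807 genes, 818 (4.13%) had 2 or more members and 266 (1.34%) had 3 or more, and these 266 took 970 members (23.1%). Genes with several members were long: the median span was 103.6 kb for the 266, 45.0 kb for genes with 1 member and 27.2 kb over all protein-coding gene records. Of the 2206 AML1-ETO sites at the 266 genes, 43.97% were N-CoR-only and 17.5% had both co-regulators, against 23.2% N-CoR-only over all sites. The genes were chosen for their N-CoR-only sites, so nothing is read from this share. At 17 genes all AML1-ETO sites were N-CoR-only. Members were seldom immediate neighbours. The smallest gap was 287 bp and the median gap 223969 bp, and 759 members (18.1%) stood in 361 runs with gaps under 10 kb, the longest of 4 sites.

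BCOR had the most, with 11 of its 33 AML1-ETO sites N-CoR-only. BCOR (X, 39909068 to 40036582) encodes a co-repressor of BCL6. Its members lay from 96185 bp upstream to 444458 bp downstream of a start, 2 of them within the gene, and AML1 overlapped 3 of the 11. ID2, an inhibitor of basic helix-loop-helix factors (2, 8818975 to 8824591), had 8 of 28, all upstream, 103289 to 779510 bp from its start, with AML1 at 4. RPTOR, the raptor subunit of mTORC1 (17, 78518619 to 78940171), had 8 of 19, all inside the gene. SEPTIN9, a septin of the cytoskeleton, had 7 of 25, all within the gene. PFKFB3, an enzyme that stimulates glycolysis, had 7 of 16, 6 of them with AML1 and none with TGTGGT. PTGER4, a receptor of prostaglandin E, had 7 of 14, of which 6 lay 164688 bp or more upstream.

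The next 4 genes had 6 N-CoR-only sites each, as did some genes not described here and TGFBR2, described with the receptors. At CCND3 (6, 41902672 to 42018095) 6 of 7 AML1-ETO sites were N-CoR-only and the other had neither co-regulator. AML1 overlapped 5 of the 6, TGTGGT was in 3, and no p300 summit was nearer than 4762 bp. At DAP, a gene linked to programmed cell death (5, 10679342 to 10761346), 6 of 8 were N-CoR-only, 5 with AML1 and 4 with the ETS core, and TGTGGT was in none. At FOSL2, which encodes an AP-1 subunit, 6 of 11 were N-CoR-only, 5 with AML1. The one without AML1 lay 52 bp upstream of the start with p300 at 143 bp and H3K4me3 at 615 bp. At PREX1, a Rac exchange factor, 6 of 17 were N-CoR-only and 4 held TGTGGT.

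**Figure D5:**
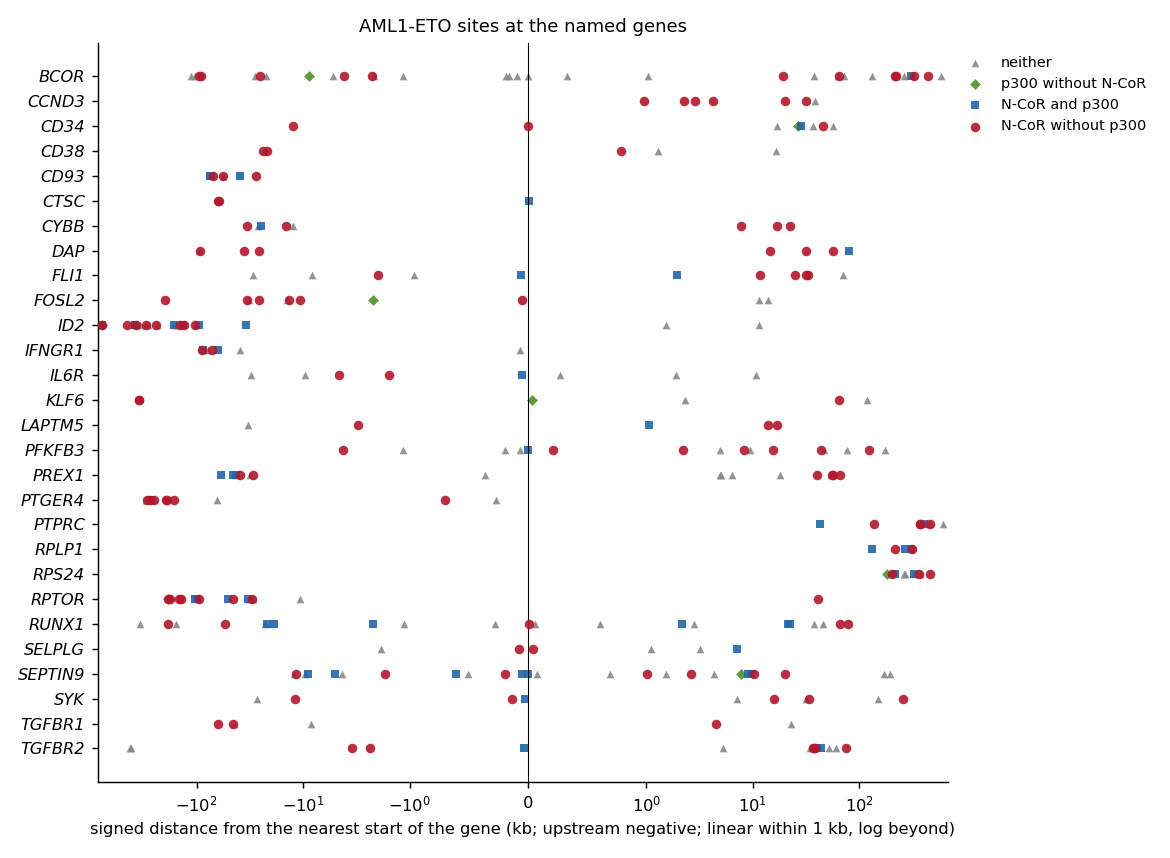
Signed distance of AML1-ETO sites from the nearest start of each named gene (x axis, kb, upstream negative, linear within 1 kb and log beyond), one row per gene, coloured by co-regulator class. A gene can have several annotated protein-coding starts, so a negative value can lie inside the gene. At RPTOR all 8 N-CoR-only sites are inside the gene, most of them at negative values. Most N-CoR-only sites (red circles) lie more than 1 kb from the start; at ID2 all 8 lie over 100 kb upstream.

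Lists of genes by function gave the setting. Of 38 myeloid transcription factor genes, 19 (50.0%) had a member, against 14.8% of all protein-coding genes. These genes drew AML1-ETO sites of every kind: 34 of 38 had at least one (89.5%, against 41.7% of all genes), and of their 188 AML1-ETO sites 22.3% were N-CoR-only, near the 23.2% over all sites. A site with both co-regulators was at 23 of the 38 (60.5%, against 10.4% of all genes). In the immune receptor signalling list 19 of 28 genes (67.9%) had a member and 28.1% of 139 sites were members. In the same list 21 genes (75%) had a site with both co-regulators and 24 (85.7%) any AML1-ETO site. Of 6 phagocyte oxidase genes, 4 had a member, 3 a site with both co-regulators and 5 (83.3%) any AML1-ETO site. Of their 18 sites 9 were members, but 5 of these 9 were at CYBB. Members were found at 7 of 22 granule protein genes (20.0% of 40 sites) and 8 of 19 growth factor and cytokine receptor genes (22.1% of 86). They were found at 13 of 26 genes for adhesion and surface molecules (27.1% of 85). Sites with both co-regulators were at 10, 9 and 11 genes of these lists, in that order. The shares of genes with any AML1-ETO site were 77.3%, 84.2% and 92.3%. G1 cyclins, CDKs and inhibitors had 2 of 16 (29.2% of 24 sites), but 6 of the 7 members in this list were at CCND3. Ribosomal protein genes had 13 of 60 (21.7%, and 30.2% of 53 sites). Genes of liver, muscle, neurons and pancreas had 3 of 41 (7.32%, and 17.6% of 17 sites). In the cyclin, ribosomal and tissue lists, in that order, 3, 8 and 3 genes had a site with both co-regulators. Any AML1-ETO site was at 9, 26 and 11 genes.

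Among the transcription factors, RUNX1 itself (21, 36160098 to 37376965), the gene of AML1, had 5 N-CoR-only sites of 21. One lay 11 bp inside a RUNX1 start at chr21:36421506-36421605, held 2 copies of TGTGGT and had AML1 at 19 bp, N-CoR on the same base and H3K4me3 at 833 bp. The peak lists do not tell the intact gene from the translocated copy. FLI1 (11, 128556430 to 128683162), an ETS factor, had 5 of 11, all within the gene, 4 with the ETS core and 1 with AML1. KLF6, a zinc-finger factor, had 3 of 6, each with AML1. These lay 64479 to 346454 bp from its start, none within the gene, and so were linked to it by nearest start alone. CYBB (X, 37639271 to 37672714), the membrane subunit of the phagocyte oxidase, had 5 of 8, with AML1 at 3. The study took a region that it lists as Phox (cybb) for a negative control and reported negligible AML1-ETO binding there. Where the CYBB sites lie relative to that region was not examined. CTSC, the protease that activates granule serine proteases, had 2 of 3, 61745 and 62796 bp from its start.

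Receptor genes varied. TGFBR2 and TGFBR1, the receptor pair of TGF-beta, had 6 of 15 and 3 of 6. The TGFBR1 members each had AML1, against 2 of 6 at TGFBR2. IL6R had 2 of 8, 1580 and 4606 bp from its start, and IFNGR1 2 of 7, 72207 and 89894 bp away. Of the surface molecules, CD34 (1, 208054317 to 208084747), a marker of blood progenitors, had 3 of 8, one of them with its summit on an annotated CD34 start (chr1:208063787-208063886) with AML1 at 19 bp and no H3K4me3 summit nearer than 20436 bp. CD38 had 3 of 5, all with AML1. CD93 had 3 of 7, 27957 to 69972 bp upstream of its start. SELPLG, the ligand of P-selectin, had 2 of 6, 40 bp and 80 bp from annotated starts, with no TGTGGT or AGGAAG in either window.

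In the signalling list, SYK, a kinase of Fc and integrin signalling (9, 93564069 to 93660831), had 5 of 10, with AML1 at 1. PTPRC, the gene of CD45, had 4 of 9, 137683 to 456653 bp downstream of its start and so linked to it by nearest start alone. LAPTM5, a lysosomal protein gene of blood cells, had 3 of 5. The ribosomal genes with several members, RPS24 (3 of 10) and RPLP1 (2 of 6), had none nearer than 201029 bp and 214211 bp to their starts.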

How the data were processed

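Libraries were made from untreated Kasumi-1 cells. Per the submitters' processing notes, the authors used CASAVA 1.6, Bowtie 0.12.8 and MACS2 2.0.10.20131216 with build GRCh37 (hg19). The deposited lists hold the position and numbered name of each peak, as summits widened by 50 bp to either side from pooled replicates. They give no score, count or depth, so no precision between libraries could be computed. Windows sharing 1 bp or more were called overlapping. The H3K27me3 and input samples were not analysed here. Distances were taken to summits and to GENCODE 44 starts lifted to GRCh37 (254404 transcripts), with genes assigned by the nearest of 19807 protein-coding genes' starts. Motifs were searched in the reference sequence. Shares have Clopper-Pearson and differences Newcombe 95% intervals (SciPy 1.17.1). The members, gene lists and tests were chosen with earlier results of these data known. The genes named are those of the 12 with most members (ties by the lowest deposited number, so not every gene with 6 is among them) that are reported here, those at the 12 lowest-numbered members, up to 4 per list with 2 or more members, and the lowest-numbered sites at the p300 limit and for each sequence set. No gene or site of chromosome 8 is named, and some other items that the rule selects are not reported here. PECAM1 was listed but matched no gene. Printed windows touch no annotated exon. The distance, overlap and motif code was tested on simulated data.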

Additional observations from a re-analysis of the deposited data

How the results depend on the processing

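The number of members (4192) and of genes with 3 or more (266) stayed within 1.5 times under each alternative run. The gene count fell to 180 when members were counted in gene bodies with 5 kb to either side. It fell to 188 when only sites within 100 kb of the start were counted. The differences from sites with both co-regulators were recomputed only within bins of the deposited order, in the last 5 bins, away from promoters and away from H3K4me3. None whose interval excluded 0 changed sign there. The other alternatives were run for the members' shares or counts alone, so they do not test these differences. Shares moved beyond their intervals as follows. With windows of 25, 100 or 250 bp to either side, the promoter share was 25.9%, 22.6% and 20.6% and the H3K4me3 share 16.4%, 12.2% and 9.75%; AML1 was 70.0% at 25 bp and Runx 35.8% at 250 bp. With no p300 summit within 250 bp, promoter was 21.0%, H3K4me3 10.6% and Runx 35.7%. The first 5 and the last 5 of 10 bins of the deposited list gave AML1 78.0% and 39.5%, H3K4me3 13.7% and 17.8%, Runx 37.4% and 23.9%, and the motif pair 15.3% and 9.27%; promoter was 26.3% in the last 5. An AML1 summit within 25 bp was found for 41.2%. A start within 500 or 2500 bp gave 18.8% and 35.2%, and protein-coding transcripts alone 14.98%. H3K4me3 within 500 or 2000 bp gave 10.16% and 18.4%. Motifs sought within 25 or 100 bp gave Runx 18.8% and 44.6%, ETS 25.7% and 62.8%, and the pair 3.86% and 27.4%. Runx with TGCGGT added was 40.8%, the ETS core as GAGGAA 30.8% and as GGAA 89.5%, and TGTGGT with GAGGAA 9.97%. The differences from sites with both co-regulators, in points, averaged within bins of the deposited order, were AML1 -2.44, promoter -18.3, H3K4me3 -25.5, Runx 16.0, ETS 2.41 and pair 6.09. Comparisons away from promoters, away from H3K4me3 and in the last 5 bins, and the within-bin comparison of Runx with sites of neither co-regulator (-8.42), were chosen after seeing the data. In the last 5 bins the same differences were -3.05, -22.6, -31.2, 16.3, 6.995 and 6.64. Away from H3K4me3, promoter gave -2.20 and ETS -4.32; away from promoters, H3K4me3 gave -7.60. The causes were not tested. Leaving out chromosomes 8 and 21 moved no share beyond its interval. Neither did leaving out each chromosome, which was not run for the share with p300 at 100 to 250 bp. A stricter peak threshold was not run, because the lists hold no score. No paired analysis was possible because each antibody has 1 pooled list. The lists hold no depth, so a site missing from the p300 or AML1 list is one not called there, not one shown to be unbound.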

Other observations

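The peak names inside the N-CoR list begin with the same prefix as those of the AML1-ETO list, and the names in the p300 and H3K4me3 lists begin with that of the AML1 list. Each list was taken as the antibody that its sample labels give, and the study's library overview ties a list of the same length to that antibody in each case. The N-CoR and AML1-ETO summits fell on the same base at 52 of the 4192 N-CoR-only sites.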
